A study of Mus musculus with 4 samples.

Results

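Prostate luminal genes and genes that respond to androgen were followed in macrophages sorted from prostate cancer tumours. The 8 genes were chosen by name from the 39179 genes counted: Tmprss2, Fkbp5, Foxa1, Pbsn, Msmb, Psca, Steap4 and Spdef. All 8 were matched by symbol to a single Ensembl identifier. The tumours grew under the skin of FVB mice from injected MycCaP cells or MycCaP-BMP4 cells. MycCaP is a mouse prostate cancer line of the FVB strain. It was derived from a tumour in which a probasin promoter, active in prostate epithelium, drove a human MYC transgene, and MycCaP-BMP4 is labelled as its derivative with BMP4, a secreted bone morphogenetic protein. Both groups had the same host strain, the same tumour site and the same label for the sorted cells, which carry CD45, CD11b and F4/80 and lack GR1. F4/80 stands in the sample titles of the MycCaP-BMP4 group alone, and whether both groups passed the same gate cannot be told. Each group had 2 libraries of polyadenylated RNA, called MycCaP 1 and 2 and MycCaP-BMP4 1 and 2 below. The age of the mice and whether libraries came from separate mice are not stated in the labels, so the spread and the p-values cover these libraries and may be technical.

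Androgens switch on genes in prostate luminal cells, where the pioneer factor FOXA1 opens chromatin for steroid receptors. Androgen-induced genes there include secreted proteins such as probasin and beta-microseminoprotein, membrane proteins such as TMPRSS2 and STEAP4, and FKBP5, a co-chaperone of steroid receptors. Several of these genes also have other regulators: FKBP5 is a classical target of the glucocorticoid receptor, which macrophages express, and STEAP4 responds to inflammatory signals. MycCaP cells grow in response to androgen.

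The promoters of 3 members that were read in every library and of Pbsn, the classical androgen-driven gene of the mouse prostate, are shown so that the presence of response elements can be compared with the counts. Each runs from 250 bases before to 50 bases after the RefSeq start (GRCm38.p6), 5′ to 3′ on the gene's strand. Capitals mark matches to any of 5 motifs searched on both strands: the palindromic androgen response element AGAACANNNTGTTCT, the 6-base steroid receptor element TGTTCT that it contains at its end, the forkhead motif TGTTTAC, the BMP-SMAD motif GGCGCC and the TATA box TATAAA. The RefSeq table held 6 of the 8 members, the others being Msmb and Psca.
Fkbp5 promoter: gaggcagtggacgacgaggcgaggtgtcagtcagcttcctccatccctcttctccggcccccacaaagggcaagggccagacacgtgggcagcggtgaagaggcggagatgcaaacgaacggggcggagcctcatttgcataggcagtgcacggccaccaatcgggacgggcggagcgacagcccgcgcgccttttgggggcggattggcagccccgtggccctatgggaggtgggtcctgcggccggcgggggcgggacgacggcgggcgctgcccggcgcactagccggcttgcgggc
Foxa1 promoter: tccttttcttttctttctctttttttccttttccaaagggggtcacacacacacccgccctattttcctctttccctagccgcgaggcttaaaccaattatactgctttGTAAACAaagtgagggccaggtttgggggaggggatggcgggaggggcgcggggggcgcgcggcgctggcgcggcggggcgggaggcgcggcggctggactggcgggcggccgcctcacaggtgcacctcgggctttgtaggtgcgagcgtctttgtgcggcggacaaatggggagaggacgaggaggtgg
Steap4 promoter: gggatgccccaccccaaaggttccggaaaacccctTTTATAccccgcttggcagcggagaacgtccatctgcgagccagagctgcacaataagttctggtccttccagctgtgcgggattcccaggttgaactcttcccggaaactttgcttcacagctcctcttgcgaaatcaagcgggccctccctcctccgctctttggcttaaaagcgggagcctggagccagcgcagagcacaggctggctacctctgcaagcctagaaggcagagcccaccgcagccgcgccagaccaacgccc
Pbsn promoter: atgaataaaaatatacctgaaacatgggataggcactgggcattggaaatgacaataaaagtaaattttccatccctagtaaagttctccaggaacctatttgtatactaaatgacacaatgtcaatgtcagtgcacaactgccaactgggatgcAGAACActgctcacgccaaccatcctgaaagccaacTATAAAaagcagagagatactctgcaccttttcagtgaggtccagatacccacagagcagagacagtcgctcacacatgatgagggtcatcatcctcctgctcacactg

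The Fkbp5 window (chr17:28486100-28486399, minus strand) held no match to the 5 motifs, was 70.7% G or C and had more G and C than 91.4% of promoters. The annotated genes Fkbp5 and Foxa1 begin further upstream than their windows, at 28517527 and 57546916, and promoters there were not searched. In the Foxa1 window (chr12:57546062-57546361, minus strand) 1 forkhead motif, read as GTAAACA, began 141 bases before the start. Forkhead motifs were found in 3.65% of the 32851 promoters of 300 bases. The Steap4 window (chr5:7960222-7960521, plus strand) held 1 TATA box on the opposite strand, and 13.6% of promoters held one on either strand. The Pbsn window (chrX:77853451-77853750, minus strand) held the steroid receptor element, read as AGAACA, 95 bases before the start and a TATA box 59 bases before it. That element was found in 19% of promoters, among them that of Spdef. An exact match to the full androgen response element was in none of the 6 members' windows and in 3 promoters in all, or 0.00913%. The BMP-SMAD motif was in none of the 6 against 11.9% of promoters. Only exact matches were counted, so an element that departs from its motif at any fixed base was missed. The absence of a match therefore does not show that a window lacks a response element. These matches describe letters in a short window and say nothing of binding.

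Foxa1, Psca, Steap4 and Fkbp5 were read in all 4 libraries, and for each the lower MycCaP-BMP4 library lay above the higher MycCaP library. Pbsn, Msmb, Tmprss2 and Spdef had at most 3 counts in any library. No member passed the test across all genes. The excess was larger in MycCaP-BMP4 1 than in MycCaP-BMP4 2 for each of the 4 detected genes, and for Fkbp5 and Steap4 the second library lay close to the MycCaP libraries.

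**Figure D1:**
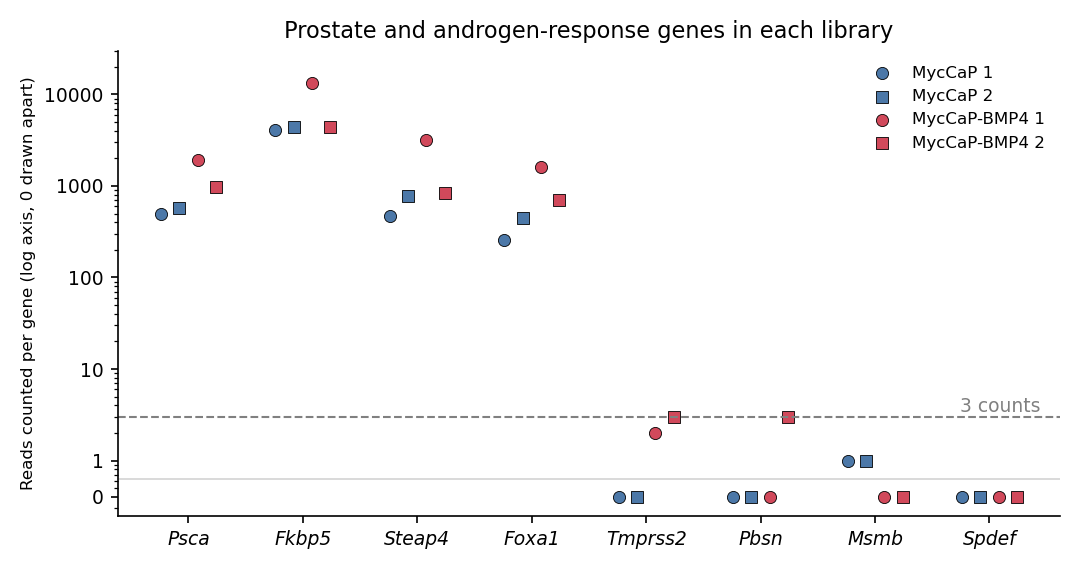
Raw reads counted for each of the 8 genes (log axis, with 0 drawn apart below the line) in the 4 libraries, with the floor of 3 counts dashed. The 4 genes on the left have between 258 and 13472 counts in every library, and the 4 on the right between 0 and 3.

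The libraries held 23058263 to 24967143 counts in genes, and levels are given as CPM, counts per 1000000 after scaling with TMM factors. A count of 3, taken as the floor of detection, was worth 0.109 to 0.132 CPM, which covers counting error only. Bmp4 had 4 and 1 counts in the MycCaP libraries and 511 and 182 CPM in the MycCaP-BMP4 libraries, in the direction of the labels. The 15 macrophage markers were all detected in each library, with a summed level of 38909 and 34880 CPM in MycCaP 1 and 2 and 7562 and 28979 CPM in MycCaP-BMP4 1 and 2. Their median level was 19.5% of the MycCaP mean in MycCaP-BMP4 1 and 73.6% in MycCaP-BMP4 2, so MycCaP-BMP4 1 stood apart. In bulk RNA, fewer macrophages and less RNA per macrophage cannot be told apart.

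Among the transcription factors, Foxa1 opens chromatin for steroid receptors in prostate and breast epithelium (ENSMUSG00000035451; chromosome 12, 57540628 to 57546916, GRCm38). Its level was 11.3 and 19.0 CPM in MycCaP 1 and 2 and 58.4 and 30.5 CPM in MycCaP-BMP4 1 and 2. The groups did not overlap, and the MycCaP libraries themselves differed 1.69-fold. The means were 15.2 ± 5.48 CPM (SD, n = 2) and 44.5 ± 19.7 CPM (SD, n = 2), a difference larger than either SD. On the log2 scale the fitted difference was 1.55 ± 0.44 (SE), which edgeR did not call (adjusted p = 0.168). Foxa1 was the only gene of its family above the filter: Foxa2 had no count, and Foxa3 stayed between 0.0422 and 0.253 CPM.

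Spdef, an ETS factor of secretory epithelium (ENSMUSG00000024215; chromosome 17, 27714352 to 27728955), had no count in any library, which at this depth allows a level of up to 0.109 to 0.132 CPM. Of 18 genes of the ETS family, 16 were tested, and edgeR called 0. Both MycCaP-BMP4 libraries were above the MycCaP pair for 4 of them (25%) and below it for 5 (31.2%), where over all 14075 genes tested these shares were 28.9% and 29.7%. Such counts in the other lists are to be read against the same shares. Elf3, an epithelial ETS factor, had 1.57 and 2.24 CPM against 10.2 and 6.01 CPM.

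Of the surface proteins, Psca encodes prostate stem cell antigen, a lipid-anchored protein of the LY6 family (ENSMUSG00000022598; chromosome 15, 74714839 to 74717069). It had 21.8 and 24.0 CPM in the MycCaP libraries and 69.4 and 42.3 CPM in the MycCaP-BMP4 libraries. Both MycCaP-BMP4 libraries stood clear of the narrow MycCaP pair, and of the 4 detected members Psca differed least between MycCaP-BMP4 1 and 2, by 1.64-fold. The means were 22.9 ± 1.58 CPM (SD, n = 2) and 55.8 ± 19.2 CPM (SD, n = 2). The fitted log2 fold change of 1.28 ± 0.32 (SE) was not called by edgeR (adjusted p = 0.153).

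Psca lies on chromosome 15 among other genes of the LY6 family. Of 11 such genes with Psca itself included, 9 were tested, and edgeR called none. Both MycCaP-BMP4 libraries were above the MycCaP pair for 5 (55.6%, against 28.9% of all genes) and below it for 4 (44.4%, against 29.7%). Of these 5 and 2 had an unadjusted p under 0.05, or 55.6% and 22.2% of the 9, where 12.3% and 6.76% of all genes did. Its relatives Slurp1 and Lypd2, which encode small secreted or anchored epithelial proteins, were under 0.4 CPM in both MycCaP libraries and had 2.06 and 0.834 CPM and 4.09 and 1.23 CPM in MycCaP-BMP4 1 and 2. Ly6e, which is widely expressed in leukocytes, went the other way, from 798 and 690 CPM to 296 and 394 CPM. However, its log2 fold change turned from -1.11 to 0.45 when libraries were scaled on macrophage markers. Reads that aligned to several places were tallied apart from genes, so LY6 genes with close copies, such as Ly6c1 and Ly6c2, could be undercounted.

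Steap4 is a metalloreductase that reduces iron and copper at membranes (ENSMUSG00000012428; chromosome 5, 7960457 to 7982213). Its level was 20.4 and 33.2 CPM in MycCaP 1 and 2 and 116 and 36.6 CPM in MycCaP-BMP4 1 and 2. The groups did not overlap, but MycCaP-BMP4 2 was only just above MycCaP 2, and the mean of 76.5 ± 56.5 CPM (SD, n = 2) differed from the MycCaP mean of 26.8 ± 9.04 CPM (SD, n = 2) by less than its own SD. Its log2 fold change in edgeR, 1.51 ± 0.58 (SE), missed the threshold (adjusted p = 0.25).

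The other genes of the family did not all lie on the same side. Steap1 had 2.49 and 2.78 CPM against 15.2 and 7.42 CPM, and Steap2 had 7.61 and 15.1 CPM against 60.6 and 18.6 CPM, both higher in each MycCaP-BMP4 library. Both are membrane proteins known from prostate epithelium. Steap3, which reduces iron in endosomes and is expressed by macrophages, had 64.7 and 60.8 CPM against 20.2 and 92.4 CPM, with the MycCaP-BMP4 libraries on either side of the MycCaP pair. None of the 4 passed by edgeR. Steap1, Steap2 and the member Steap4 were higher at an unadjusted p under 0.05 (75%, against 12.3% of all genes).

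Tmprss2, a membrane serine protease of prostate and airway epithelium (ENSMUSG00000000385; chromosome 16, 97564682 to 97611195), had no count in MycCaP 1 and 2 and 2 and 3 counts in MycCaP-BMP4 1 and 2. All 4 values are at or under the floor, so no fold is given. Of 12 genes of membrane serine proteases 4 were tested, and 3 of these lay below the MycCaP pair in each MycCaP-BMP4 library (75%, against 29.7% of all genes). St14, which encodes matriptase, had 4.63 and 4.30 CPM against 0.832 and 1.67 CPM, and Hpn, which encodes hepsin, 11.5 and 8.61 CPM against 2.42 and 7.64 CPM. Hepsin's fold change turned to 0.17 under macrophage scaling.

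The 2 secreted products of prostate luminal cells were at the limit of detection. Pbsn, which encodes probasin (ENSMUSG00000000003; chromosome X, 77837901 to 77853623), had 0 counts in both MycCaP libraries and in MycCaP-BMP4 1 and 3 counts in MycCaP-BMP4 2. Msmb, which encodes beta-microseminoprotein (ENSMUSG00000021907; chromosome 14, 32142023 to 32158370), had 1 count in each MycCaP library and 0 in each MycCaP-BMP4 library. At this depth no difference between the groups was detectable for either gene.

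Fkbp5 encodes a co-chaperone of steroid receptors and is induced by them (ENSMUSG00000024222; chromosome 17, 28399094 to 28517527). It had the most counts of the 8 genes, with 179 and 184 CPM in MycCaP 1 and 2 and 487 and 195 CPM in MycCaP-BMP4 1 and 2. Only MycCaP-BMP4 1 stood apart, at 2.69-fold of the MycCaP mean against 1.08-fold in MycCaP-BMP4 2. The means were 181 ± 3.65 CPM (SD, n = 2) and 341 ± 207 CPM (SD, n = 2), a difference smaller than the second SD. The edgeR estimate of 0.91 ± 0.48 (SE) on the log2 scale was far from the threshold (adjusted p = 0.357).

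Of 14 genes of the FKBP family, which fold proteins as prolyl isomerases, 13 were tested, and edgeR called none. In both MycCaP-BMP4 libraries 6 lay higher (46.2%, against 28.9% of all genes) and 4 lower (30.8%, against 29.7%). The 3 with an unadjusted p under 0.05, all higher (23.1%, against 12.3%), were Fkbp9, Fkbp10 and Fkbp14, which act in the endoplasmic reticulum. Fkbp10, a collagen chaperone, had 16.7 and 26.1 CPM against 76.6 and 33.2 CPM. Fkbp4, which also encodes a steroid receptor co-chaperone, had 125 and 101 CPM against 151 and 120 CPM, with overlapping groups.

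**Figure D2:**
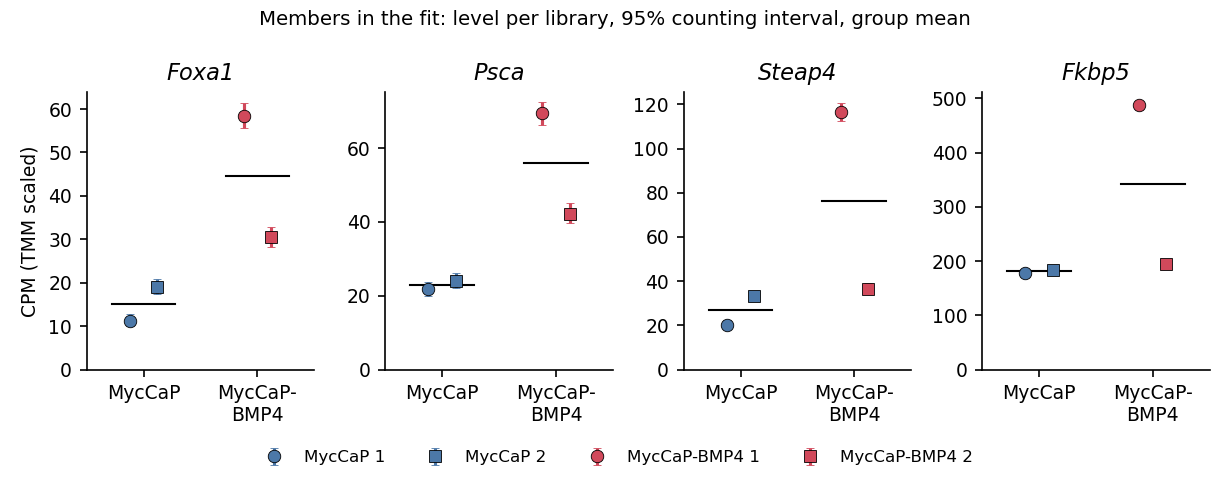
Level in CPM of the 4 detected genes in each library (points, with the 95% exact Poisson interval of the count, which covers counting error only) and the mean of each group (lines). In each panel MycCaP-BMP4 1 is highest, and for Steap4 and Fkbp5 MycCaP-BMP4 2 is close to the MycCaP points at 36.6 and 195 CPM.

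Per kilobase of annotated exon, the order of levels was the same in all 4 libraries: Psca first, then Fkbp5, Steap4 and Foxa1. In MycCaP 1 these were 25.4, 18.9, 6.46 and 3.39 CPM per kilobase in that order. In MycCaP-BMP4 1 they were 80.7, 51.5, 36.9 and 17.6 CPM per kilobase. Fkbp5 had the most reads. The length used merges all annotated exons of a gene, 860 bases for Psca and 9468 bases for Fkbp5. It can exceed that of the transcript present, so the order of transcripts by abundance was not tested.

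The 4 detected genes were read against the whole table. By edgeR 0 of 14075 genes passed at an adjusted p under 0.05 (0%), and 0 of the 4 members did. At an unadjusted p under 0.05, 3 of the 4 were higher, Fkbp5 being the exception, where 12.3% of all genes were higher and 6.76% lower. All 4 lay higher in both MycCaP-BMP4 libraries, where 28.9% of all genes did so and 29.7% lay lower in both. The median log2 fold change was 1.40 over the 4 members and -0.03 over all genes. DESeq2 called Foxa1 (adjusted p = 0.0231) and Psca (adjusted p = 0.0274) higher, where it called 6.83% of all genes higher and 3.01% lower, and limma-voom called none. With 2 libraries against 2, an exact permutation test of a single value cannot go below a two-sided p of 0.333.

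MycCaP-BMP4 1 carried much of these differences. Without it the log2 fold changes were 1.01 for Foxa1, 0.88 for Psca, 0.45 for Steap4 and 0.11 for Fkbp5. In that fit, whose spread comes from the MycCaP pair alone, edgeR's quasi-likelihood test called only Psca of the members (adjusted p = 0.0382), and it called 4.48% of all genes higher. Without MycCaP-BMP4 2 the 4 values were 1.97, 1.63, 2.15 and 1.46, and all 4 passed, where 18.5% of all genes passed as higher.

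**Figure D3:**
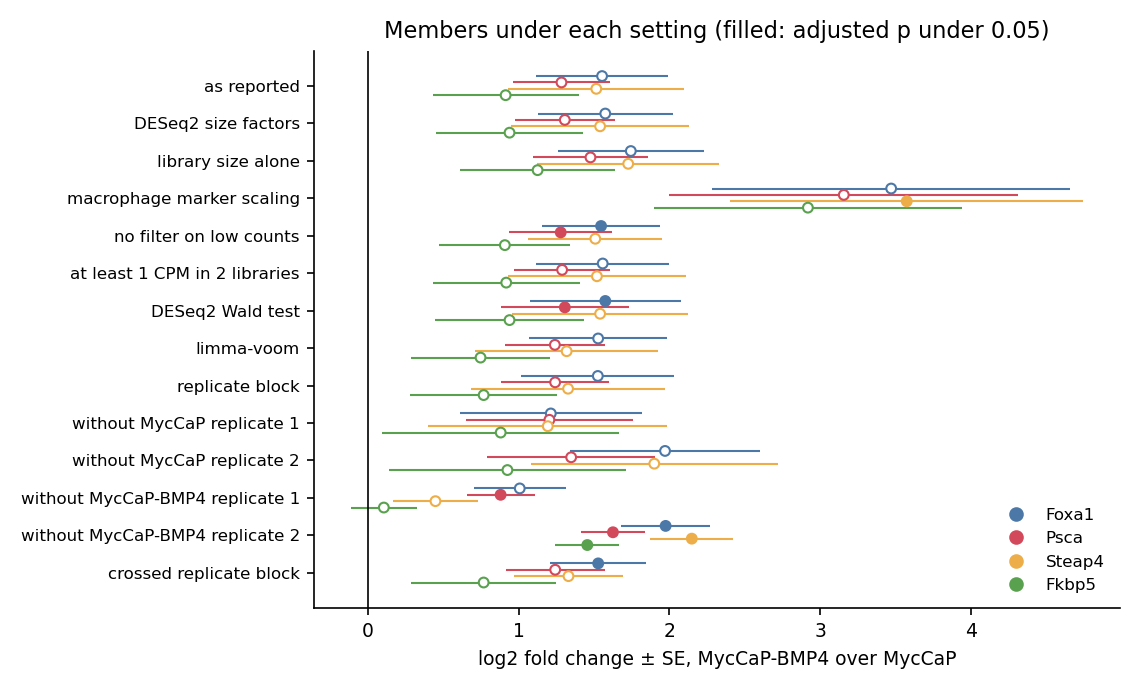
Log2 fold change (MycCaP-BMP4 over MycCaP, with SE) of the 4 detected genes under each setting, filled where the adjusted p was under 0.05. All values are above 0, and without MycCaP-BMP4 replicate 1 Fkbp5 falls to 0.11 and Steap4 to 0.45.

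Markers of other cell types moved in the same libraries. Of 14 tumour epithelial markers 10 were tested, of which 6 (60%) lay higher and 1 (10%) lower in both MycCaP-BMP4 libraries, and the summed level of the list was 91.9 and 95.2 CPM in the MycCaP libraries and 515 and 203 CPM in the MycCaP-BMP4 libraries. Cldn3, a tight junction gene, made up most of that sum in the MycCaP-BMP4 libraries, with 25.8 and 27.6 CPM against 359 and 126 CPM. Cdh1, which encodes E-cadherin, was the one lower in both, with 5.16 and 4.05 CPM against 0.326 and 1.93 CPM. Of the keratins of simple epithelia, Krt8 had 16.6 and 19.4 CPM against 30.8 and 14.9 CPM and Krt7 29.3 and 28.7 CPM against 44.7 and 16.2 CPM, both with overlapping groups, while Krt19 was higher in both MycCaP-BMP4 libraries, up to 20.7 CPM. The remaining 4 fell under the filter: Esrp1 had no count, Cldn7 at most 2 counts, Krt18 at most 0.132 CPM and Epcam at most 0.615 CPM. The epithelial sum was 2.54-fold higher in MycCaP-BMP4 1 than in MycCaP-BMP4 2, and the same ratio was 3.18 for Steap4, 2.50 for Fkbp5, 1.92 for Foxa1 and 1.64 for Psca. The part of tumour cells in the members' values was not tested.

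Steap4 is also expressed by mural cells, adipocytes and neutrophils. Of 10 mural markers 9 were tested, of which 3 lay higher and 3 lower in both MycCaP-BMP4 libraries (33.3% each). Their summed level was 52.7 and 100.3 CPM against 153 and 88.8 CPM, whereas the median tested marker was at 94% of the MycCaP mean in MycCaP-BMP4 1 and 46.3% in MycCaP-BMP4 2. The 3 higher in both were Abcc9, Cspg4 and Des, and the 3 lower in both were Kcnj8, Pdgfrb and Acta2. Abcc9, a channel subunit of pericytes, had 6.21 and 9.83 CPM against 41.4 and 20.5 CPM. Pdgfrb had 6.30 and 13.6 CPM against 5.68 and 4.35 CPM, and Kcnj8 0.568 and 2.36 CPM against 0.289 and 0.0878 CPM. The 8 adipocyte genes summed to 63.9 and 60.9 CPM against 228 and 113 CPM. Nearly all of this was Fabp4, a fatty acid-binding protein of adipocytes that macrophages also express, with 62.5 and 58.4 CPM against 224 and 113 CPM (unadjusted p = 0.0101 and adjusted p = 0.158 by edgeR). Lep and Cidec had no count and Adipoq at most 1 count a library. The 10 neutrophil markers summed to 75.6 and 72.2 CPM against 53.6 and 67.7 CPM, with Ly6g at 0 in all 4 libraries. Of the 7 tested, 0 lay higher and 2 lower (28.6%, against 29.7% of all genes) in both MycCaP-BMP4 libraries. Csf3r, the largest part of the sum in the MycCaP libraries, had 53.4 and 53.3 CPM against 14.4 and 47.5 CPM. S100a8 and S100a9 were highest in MycCaP-BMP4 1 and lowest in MycCaP-BMP4 2, S100a9 with 5.99 and 7.34 CPM against 21.6 and 2.46 CPM. What these cells add to the Steap4 values was not tested.

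**Figure D4:**
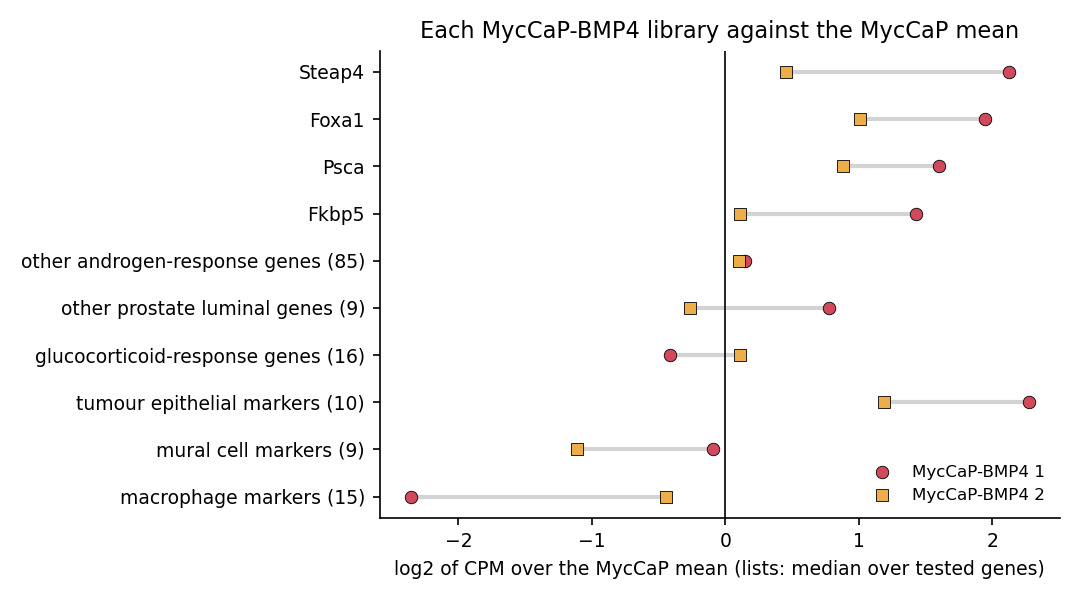
Log2 of the level in each MycCaP-BMP4 library over the MycCaP mean, for the 4 detected genes and, as medians over the tested genes (number in brackets), for 6 gene lists. The members lie right of 0 in both libraries, and the macrophage markers lie left of 0, at 19.5% and 73.6% of the MycCaP mean.

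The wider set of androgen-response genes held both higher and lower values. Of 92 such genes known from prostate cancer cells, 85 were tested, and edgeR called none. In both MycCaP-BMP4 libraries 35 lay higher (41.2%, against 28.9% of all genes) and 24 lower (28.2%, against 29.7%). At an unadjusted p under 0.05, 15 were higher (17.6%, against 12.3%) and 4 lower (4.71%, against 6.76%). The median log2 fold change of 0.23 was near that of all genes, -0.03. Many of these genes are also expressed by macrophages. Abhd2, a lipase of the alpha/beta hydrolase fold, had 80.7 and 100.5 CPM against 571 and 274 CPM, and Rrp12, a ribosome assembly factor, 19.9 and 15.8 CPM against 75.9 and 46.7 CPM. Krt19, a keratin of simple epithelia, had 1.44 and 1.31 CPM against 20.7 and 11.4 CPM. Hpgd, which inactivates prostaglandins, had 10.6 and 13.7 CPM against 2.17 and 1.80 CPM.

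Of 20 other luminal genes, 9 had no count in any library and 9 were tested, none of which edgeR called. In both MycCaP-BMP4 libraries 4 of these lay higher (44.4%) and 2 lower (22.2%). The lists share genes: Cldn3, Hoxb13, Krt8 and Krt18 are also among the tumour epithelial markers, so the counts of the lists are not independent. Cd24a, a surface glycoprotein of luminal and immature cells, had 21.7 and 26.2 CPM against 150 and 83.0 CPM. Hoxb13, a homeobox factor of prostate and hindgut, had 6.12 and 4.98 CPM against 23.9 and 7.73 CPM. Folh1, the mouse counterpart of prostate-specific membrane antigen, had 3.32 and 5.06 CPM against 0.941 and 0.439 CPM. Of 7 basal cell genes 3 were tested, and 2 of these lay higher in both MycCaP-BMP4 libraries (66.7%, against 28.9% of all genes). Krt15 had 42.5 and 47.4 CPM against 938 and 409 CPM. Trp63, the basal transcription factor, had 0.0437 and 0.169 CPM against 6.87 and 1.58 CPM. Dst had 80.9 and 106 CPM against 126 and 102 CPM, with overlapping groups. The 4 under the filter were Krt5, with no count, Krt14 and Krt17, with at most 1 count, and Col17a1, with at most 6 counts.

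Steroid receptors and their partners were compared next, since Fkbp5 answers to more than 1 receptor. Of 18 genes 15 were tested, and edgeR called none. In both MycCaP-BMP4 libraries 7 lay higher (46.7%, against 28.9% of all genes) and 1 lower (6.67%, against 29.7%). The gene lower in both was Nr3c1, the glucocorticoid receptor, with 105 and 113 CPM against 17.2 and 80.4 CPM. Gata3, a luminal transcription factor, had 10.01 and 11.8 CPM against 99.1 and 34.9 CPM, and Grhl2, an epithelial one, 2.27 and 2.74 CPM against 9.52 and 4.74 CPM. Of 16 glucocorticoid-response genes, all tested, edgeR called none, and 5 lay higher (31.2%) and 4 lower (25%) in both MycCaP-BMP4 libraries, near the shares of all genes. Their median log2 fold change was 0.18. Klf9 had 18.2 and 18.6 CPM against 101 and 47.3 CPM and Pdk4 6.295 and 9.75 CPM against 240.1 and 149.5 CPM, while Ddit4 had 90.9 and 89.8 CPM against 34.1 and 33.5 CPM, although its log2 fold change turned from -1.42 to 0.27 under macrophage scaling. All of these are transcripts induced by glucocorticoid in many tissues. Of 11 matched genes of androgen synthesis and reduction 3 were tested, and edgeR called none. Srd5a3, a steroid reductase also needed for protein glycosylation, had 42.9 and 46.7 CPM against 34.5 and 44.1 CPM, and Srd5a1, a reductase of testosterone, 1.84 and 2.95 CPM against 5.57 and 2.94 CPM, both with overlapping groups. Star, which carries cholesterol into mitochondria, had 0.787 and 0.886 CPM against 3.18 and 1.49 CPM. Of the genes under the filter, Srd5a2, Hsd17b3 and Cyp17a1 had at most 1 count.

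**Figure D5:**
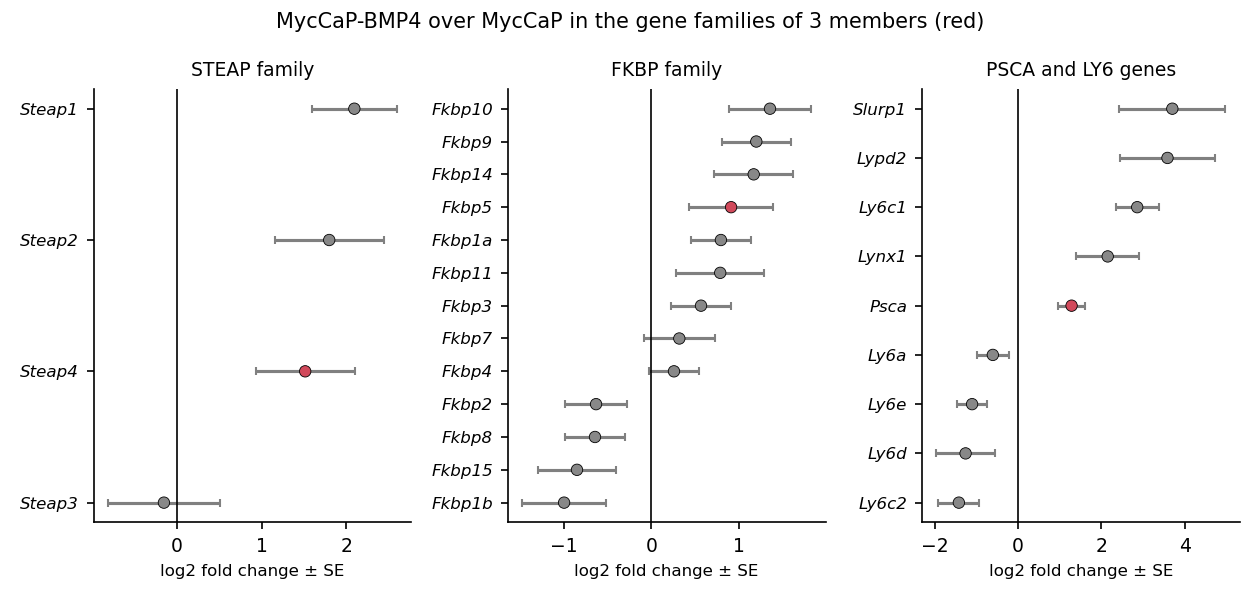
Log2 fold change with SE (MycCaP-BMP4 over MycCaP) of the tested genes in the STEAP, FKBP and LY6 families, with the members in red. Steap4 lies with Steap1 and Steap2 above 0 and Steap3 lies at -0.16, and the LY6 genes fall on both sides of 0.

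The genes with the most similar pattern to each member were sought among 12564 genes with a mean of at least 1 CPM, by the root mean square difference of centred log2 CPM over the 4 libraries. For Foxa1 they were Efna5, Caskin2 and Gprc5a, with differences of 0.0676 to 0.0810. Gprc5a, a retinoic acid-induced receptor of epithelia, had 11.1 and 21.4 CPM against 66.3 and 33.3 CPM. For Psca they were Urb2, Cenpv and Arhgef28 (0.0215 to 0.0271), and those reported for Steap4 were Kcnh2 and Klrg2 (0.0197 and 0.0583) and for Fkbp5 Wfdc12 and Zfp317 (0.0456 and 0.0488). Such patterns were common: 84 genes lay within 0.2 of Steap4, 155 of Foxa1, 230 of Fkbp5 and 397 of Psca. With 4 libraries this ranks shapes only.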

How the data were processed

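RNA of 4 libraries was sequenced in pairs after polyA selection and directional library preparation, per the labels' protocols. Each deposited file gives a raw read count for every Ensembl gene. HTSeq, STAR 2.6.0b, RSEM, Bowtie2 2.2.3 and the build GRCm38 (mm10) are named in the submitters' processing notes with no role or order. Neither the annotation release nor the strand setting of counting is given in the sources used here. No other gene's exons overlapped those of a member in GENCODE M21, which also gave coordinates and exon lengths. Of 39179 identifiers 37607 had a symbol, and all but 1 of the 320 list symbols matched. Reads in no gene made up 3.37% to 6.03% of all counted reads, and summary lines stayed out of library sizes.

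Libraries were grouped by the labelled cell line. Genes were kept with filterByExpr (14075 genes, 4 of 8 members), scaled with TMM and tested with edgeR 4.0.16's quasi-likelihood F test (two-sided, Benjamini-Hochberg adjusted p under 0.05 over all genes, no covariate). The SE is the fold change over the square root of F. Alternatives, with DESeq2 1.42.0 and limma 3.58.1, are given in the closing section. The members and lists were chosen with earlier results of these data known. The genes named are the members, their families, up to 4 genes of each list by p with defining markers, Bmp4, and the 3 genes most alike each member. Krt5, Krt7, Krt8, Krt18, Cldn7, Esrp1, Adipoq, Lep, Cidec, Ly6g, Srd5a2, Hsd17b3 and Cyp17a1 were picked with their values in view. So were Krt14, Krt17, Col17a1, S100a8, S100a9, Pdgfrb and Acta2. Certain other genes are not reported here. Replicate pairs differed far beyond sampling noise (chi-square per degree of freedom 43.2 and 279).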

Additional observations from a re-analysis of the deposited data

How the results depend on the processing

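The 4 detected members kept a positive log2 fold change under every alternative run, and both MycCaP-BMP4 libraries stayed above both MycCaP libraries under the 4 scalings compared. The count of genes passing edgeR moved from 0 to 65 with library size alone, 934 with scaling on macrophage markers and 1109 with no filter on low counts, and was 1385 with DESeq2's Wald test. It was 0 to 5753 when each library was left out in turn. Members passing numbered 1 with macrophage scaling (Steap4), 2 with no filter and 2 with DESeq2 (Foxa1 and Psca each time), and 0 to 4 when libraries were left out. Macrophage scaling moved the median of all genes from -0.03 to 1.63 and that of the 4 members from 1.40 to 3.31, so that the members' excess over all genes was 1.43 as reported and 1.68 there. Without each library in turn the members' median ran from 0.66 to 1.80. Of the 60 genes followed across the settings, 6 changed the sign of their log2 fold change under macrophage scaling. These were Steap3 (0.86), Hpn (0.17), Ly6e (0.45), Ddit4 (0.27), Csf1r (0.11) and Srd5a3 (1.39). Csf1r is itself among the macrophage markers that set this scaling, which brings their median near 0, so its change carries no information. Steap3 ran from -1.60 to 0.56 with a library left out, the positive value being that without MycCaP-BMP4 replicate 1. Krt8 ran from -0.27 to 0.81 and Krt7 from -0.84 to 0.65, negative without that library, and Krt7 was also negative with limma-voom (-0.083), the replicate block (-0.11) and the crossed block (-0.10). For settings other than scaling and left-out libraries, the cause was not tested. With the replicate number as a block 2 genes and no member passed. The labels do not say that the numbers pair the libraries, and the deviations of the replicates numbered 1 correlated over genes with r = -0.13. With the numbers crossed, an alternative chosen after seeing the data, 689 genes and 1 member passed. Low depth limits Tmprss2, Pbsn, Msmb and Spdef, for which a level up to about the floor cannot be told from none.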
